A study of Saccharomyces cerevisiae with 12 samples.

Results

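The genes described here encode nuclear subunits and assembly or expression factors of the respiratory chain and the ATP synthase of budding yeast, together with both cytochrome c isoforms. They were chosen by gene symbol: COX, QCR, SDH or ATP followed by a number, with or without a final A or B, and in addition CYT1, CYC1, CYC7, RIP1 and COR1. The rule found 54 of the 5574 named genes on the arrays, 8 of complex II (5 subunits and 3 assembly factors), 9 of complex III, 2 cytochromes c, 18 of complex IV (9 subunits and 9 assembly factors) and 17 of the ATP synthase (11 subunits and 6 assembly or expression factors). All 54 symbols matched a locus of the RefSeq annotation, and none of these loci overlapped another annotated gene. Mitochondrially encoded subunits were not analysed here.

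Expression was measured by competitive hybridisation to 12 spotted arrays with 2 channels each. Channel 1 held total RNA of a deletion strain, FY31 (snf2) or YPS1 (swi1), and channel 2 total RNA of the wild type FY2. The Snf/Swi complex remodels chromatin, with the SNF2 product as its ATPase and the SWI1 product as another subunit. The 4 groups of 3 arrays were snf2 in minimal medium, swi1 in minimal medium, snf2 in rich medium and swi1 in rich medium. Each mutant was represented by 1 named strain. No label ties the replicates to separate cultures, so the spread behind each p-value is that between arrays and may be technical. The comparisons ask which of these genes differ between a mutant and the wild type, whether the mutants differ from each other, and whether an effect depends on the medium.

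Electrons from NADH and succinate enter the yeast chain through single-polypeptide NADH dehydrogenases and complex II (succinate dehydrogenase), pass by ubiquinone to complex III (the cytochrome bc1 complex), and then by cytochrome c to complex IV (cytochrome c oxidase). The proton gradient that complexes III and IV build drives the ATP synthase, whose F1 head sits on a membrane-embedded Fo part. Glucose represses many of these genes, the Hap2/3/4/5 complex activates them, and Hap1 adjusts some of them to haem and oxygen. COX5A with COX5B, and CYC1 with CYC7, are isoform pairs whose balance depends on oxygen.

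Values are log2 ratios, mutant over wild type, centred on the median gene of each array. Replicates 2 and 3 of every group shared 1 array design and were tested (8 arrays, n = 2 in each group). Replicate 1, on other designs, was set beside them. Its minimal and its rich arrays had different designs, so on replicate 1 medium and array design cannot be told apart. The mutant-over-wild-type reading is likely but not stated in the labels: with the opposite reading every gene called higher would be lower. The deleted genes did not settle it, since SNF2 read from 0.65 to 1.00 on the 4 tested arrays labelled snf2, so higher and not lower there, and SWI1 ranged from -0.83 to 0.57 on the 4 tested arrays labelled swi1. Arrays are therefore named by their labels throughout, and every direction carries this limit. Between 5299 and 8192 of 8832 probes were measured on the 8 arrays, with the fewest on snf2 rich replicate 3. Centring moved 3 of these arrays by more than 0.1, both snf2 rich arrays by 0.11 and swi1 rich replicate 3 by 0.10. In bulk RNA, fewer cells of a kind and less RNA of a gene per cell cannot be told apart. With n = 2, a mean without 1 array is the value of the other array.

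Most respiratory genes lay close to the wild type. In minimal medium 6 of 52 tested genes were higher and 4 lower in snf2, so that 19.2% were called, beside 29.2% of all genes tested (12.8% higher, 16.4% lower). In swi1, 11 of 52 were higher and 3 lower, which was 26.9%, beside 28.5% of all genes (13.7% higher, 14.8% lower). A gene was called at a Benjamini-Hochberg adjusted p under 0.05 in limma, over all genes tested. Taking both directions together, these shares were at or below those of all genes, while the share called higher in swi1 was 21.2%, above the 13.7% of all genes. The median of the respiratory genes was 0.05 in snf2 and 0.07 in swi1, beside 0.01 and 0.00 for all genes.

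In rich medium the calls leaned downwards in swi1. There 1 of 50 tested genes was higher and 15 were lower, or 2.0% and 30.0%, beside 19.1% and 21.7% of all genes (40.8% called in all). On snf2 arrays 5 of 37 tested genes were higher and 6 lower, in all 29.7%, beside 41.7% of all genes (19.5% higher, 22.2% lower). Medians were -0.05 in snf2 and -0.10 in swi1, beside 0.01 and 0.00 for all genes. The typical size of an effect, as the median of absolute log2 ratios, was below that of all genes in each of the 4 groups: 0.17 beside 0.24 in snf2 minimal, 0.17 beside 0.24 in swi1 minimal, 0.25 beside 0.31 in snf2 rich and 0.27 beside 0.31 in swi1 rich.

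**Figure D1:**
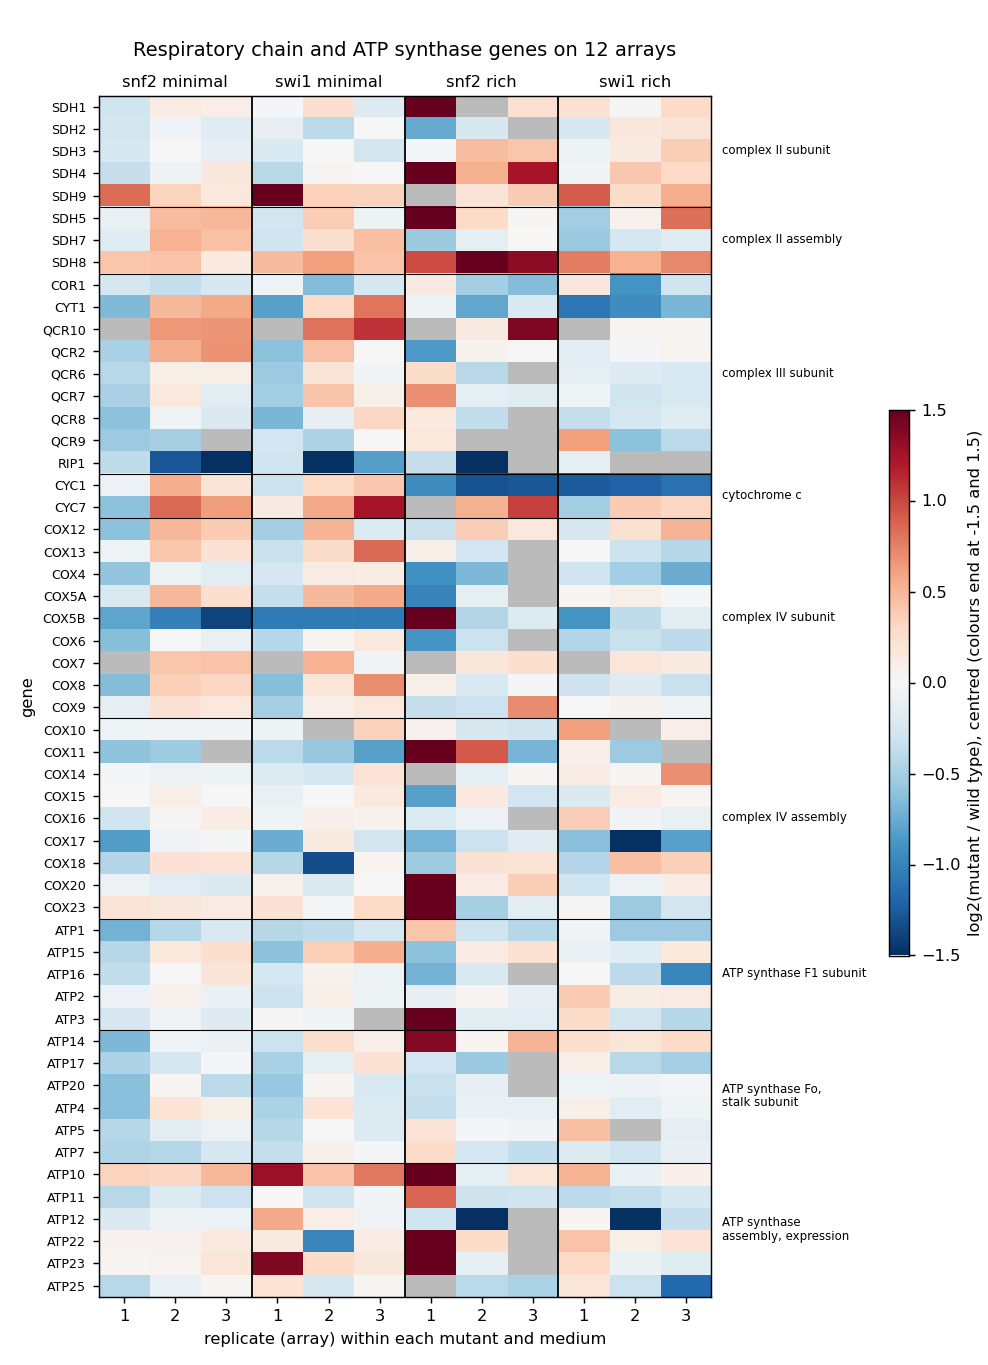
Log2 ratio, mutant over wild type (colour), of each of the 54 genes (vertical axis, ordered by complex) on each of the 12 arrays (horizontal axis, replicates 1 to 3 within each mutant and medium). Most cells are pale, while CYC1 is lower on all 6 rich arrays, COX5B is lower on all 6 minimal arrays, and the snf2 rich replicate 1 column holds the strongest colours.

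Across the 4 groups 32 of the 54 genes were called at least once and 22 were not. In minimal medium 7 genes were called in both mutants, and in rich medium 5 were. Of all genes, 29.2%, 28.5%, 41.7% and 40.8% were called in snf2 minimal, swi1 minimal, snf2 rich and swi1 rich. Genes called at least once or in both mutants were not counted over all genes. These counts are therefore not shown to be particular to respiratory genes. CYC1 and CYT1 were the 2 genes called in opposite directions in different media. A fit with 1 array left out has n = 1 in that group. The share of calls that such a fit keeps was not counted over all genes, so the losses are not shown to be particular to respiratory genes. Few calls held when either array of the group was left out in turn: 1 of 10 in snf2 minimal (COX5B), 1 of 14 in swi1 minimal (COX5B), 3 of 11 in snf2 rich (CYC1, SDH4 and SDH8), and in swi1 rich 3 of 16 (ATP1, COX17 and CYC1).

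Complex II feeds electrons from succinate of the tricarboxylic acid cycle into the chain. Its genes were called in 6 cases over the 4 groups besides SDH8, each time higher. Of its subunit genes 0 of 5 tested were higher in snf2 minimal and 1 of 5 in swi1 minimal. In rich medium 2 of 3 were higher in snf2 and 1 of 5 in swi1. Of its assembly factors, SDH8 included, 1 of 3 was higher in each group except swi1 rich, where 0 of 3 were. Of all genes, 12.8%, 13.7%, 19.5% and 19.1% were higher in snf2 minimal, swi1 minimal, snf2 rich and swi1 rich. SDH4, a membrane anchor subunit, was called higher in snf2 in rich medium, and SDH8, an assembly factor that binds the flavin-carrying Sdh1 subunit, had the highest mean of the tested respiratory genes there.

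SDH4 read 1.50, 0.53 and 1.24 on the snf2 rich arrays (replicates 1, 2 and 3). All 3 lay above 0, and the tested mean was 0.89 ± 0.16 (limma's moderated SE here and below; adjusted p = 0.00421). On snf2 minimal arrays SDH4 read -0.35, -0.08 and 0.17, on swi1 minimal arrays -0.42, 0.02 and -0.01, and on swi1 rich arrays -0.05, 0.41 and 0.30, so the snf2 rich arrays all lay above the other 9.

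SDH8 read 0.98, 3.59 and 1.34 on snf2 rich arrays, with a tested mean of 2.47 ± 0.42 (adjusted p = 0.00329). The high replicate 2 value averaged spots of 6.33 and 0.86, so 1 spot set most of it. Without replicate 2 the mean was 1.34, still called. On the other arrays SDH8 lay between 0.14 and 0.77, above 0 on all 12, but it was called in no other group.

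The remaining complex II calls were smaller. SDH7, an assembly factor that protects the iron-sulphur subunit, was higher by 0.48 in snf2 minimal and by 0.35 in swi1 minimal, and read -0.18 and -0.29 there on replicate 1. SDH9, a minor paralogue of the flavoprotein gene SDH1, was higher by 0.35 in swi1 minimal and by 0.41 in swi1 rich, and replicate 1 read 1.99 and 0.91. SDH3, the cytochrome b subunit, was higher by 0.44 in snf2 rich, with -0.02 on replicate 1. Each of these 5 calls was lost without at least 1 array (adjusted p from 0.0635 to 0.227). SDH1, SDH2 and SDH5, a flavin-attachment factor, were called in no group.

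Among the genes of complex III and cytochrome c, CYC1 held the clearest dependence on medium, the only one whose difference was called in both mutants. CYC1, the major cytochrome c isoform, was lower in both mutants in rich medium by more than 2-fold and slightly higher in both in minimal medium. CYT1, which encodes cytochrome c1 of complex III, was likewise called in opposite directions in the media, higher in swi1 minimal and lower in both mutants in rich medium. The isoform gene CYC7 was higher in 3 of the 4 groups and was called lower in none.

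CYC1 read -0.93, -1.31 and -1.29 on snf2 rich arrays and -1.24, -1.21 and -1.12 on swi1 rich arrays. All 6 rich arrays lay below every minimal array. Tested means were -1.30 ± 0.11 in snf2 (adjusted p = 0.000142) and -1.17 ± 0.11 in swi1 (adjusted p = 0.000346). In minimal medium CYC1 read -0.08, 0.54 and 0.19 in snf2 and -0.31, 0.30 and 0.41 in swi1. Replicate 1 was below 0 in both mutants, and replicates 2 and 3 were above. The minimal means were called at 0.37 ± 0.11 in snf2 (adjusted p = 0.0374) and 0.35 ± 0.11 in swi1 (adjusted p = 0.0436). The snf2 call was lost without replicate 2, leaving 0.19. The swi1 call was lost without replicate 2 (leaving 0.41) or 3 (leaving 0.30). Such a loss leaves n = 1 in the group, so it does not by itself show that 1 array set the mean.

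CYC7 read -0.61, 0.85 and 0.62 on snf2 minimal arrays, 0.13, 0.56 and 1.24 on swi1 minimal arrays, 0.53 and 1.02 on snf2 rich replicates 2 and 3, and -0.51, 0.38 and 0.31 on swi1 rich arrays. Replicates 2 and 3 were above 0 in every group, and replicate 1 was below 0 in 2 of its 3 measured groups. The gene was called higher in snf2 minimal (0.74 ± 0.18, adjusted p = 0.0204), swi1 minimal (0.90 ± 0.18, adjusted p = 0.0106) and snf2 rich (0.78 ± 0.18, adjusted p = 0.0114). It stood at 0.35 in swi1 rich (adjusted p = 0.162). Calls were lost without snf2 minimal replicate 2 (adjusted p = 0.183) or 3 (0.0958), swi1 minimal replicate 3 (0.108) and snf2 rich replicate 3 (0.153).

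CYT1 read -0.67, 0.49 and 0.57 on snf2 minimal arrays, -0.81, 0.28 and 0.80 on swi1 minimal arrays, -0.08, -0.78 and -0.23 on snf2 rich arrays, and -1.09, -0.93 and -0.68 on swi1 rich arrays. On replicates 2 and 3 every minimal array lay above every rich one, whereas replicate 1 was below 0 in all 4 groups. The gene was called higher in swi1 minimal (0.54 ± 0.17, adjusted p = 0.0496) and lower in snf2 rich (-0.50 ± 0.17, adjusted p = 0.0454) and swi1 rich (-0.81 ± 0.17, adjusted p = 0.00837). In snf2 minimal it stood at 0.53 (adjusted p = 0.0515). The swi1 minimal call was lost without replicate 2 (adjusted p = 0.0669) or 3 (0.41), the snf2 rich call without replicate 2 (0.442) and the swi1 rich call without replicate 2 (0.0768).

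RIP1 encodes the Rieske iron-sulphur protein of complex III. It read -0.38, -1.28 and -2.39 on snf2 minimal arrays and -0.30, -1.96 and -0.83 on swi1 minimal arrays, below 0 on all 6. Tested means were -1.84 ± 0.36 in snf2 (adjusted p = 0.0165) and -1.39 ± 0.36 in swi1 (adjusted p = 0.0408), with wide spread between arrays. The snf2 call was lost without replicate 3 (adjusted p = 0.145) and the swi1 call without replicate 2 (0.299) or 3 (0.0693). In rich medium it had too few values for a test, with -0.34 and -3.48 on snf2 replicates 1 and 2 and -0.14 on swi1 replicate 1.

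The core protein genes COR1 and QCR2 behaved unlike each other. COR1 read 0.14, -0.51 and -0.65 on snf2 rich arrays and 0.17, -0.89 and -0.30 on swi1 rich arrays, with replicate 1 above 0 and the others below in both. It was called lower in snf2 rich (-0.58 ± 0.16, adjusted p = 0.0219) and swi1 rich (-0.60 ± 0.16, adjusted p = 0.0211). Without snf2 rich replicate 2 or 3 the first call was lost (adjusted p = 0.0807 and 0.167), as was the second without swi1 rich replicate 2 (0.233). QCR2 was called in snf2 minimal only, at 0.61 ± 0.12 (adjusted p = 0.0082) from arrays of -0.49, 0.54 and 0.67, and lost the call without replicate 2 (adjusted p = 0.0543) or 3 (0.0993). On swi1 minimal arrays QCR2 read -0.61, 0.44 and 0.00.

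QCR10, a small accessory subunit of complex III, had no probe on the replicate 1 arrays. On swi1 minimal arrays it read 0.81 and 1.09 (0.95 ± 0.26, adjusted p = 0.0312), and on snf2 rich arrays 0.13 and 1.41 (0.77 ± 0.25, adjusted p = 0.0425). On snf2 minimal arrays it read 0.66 and 0.66 without passing the test (adjusted p = 0.0923), and on swi1 rich arrays 0.04 and 0.04. The swi1 minimal call was lost without replicate 2 (adjusted p = 0.133) or 3 (0.222), and the snf2 rich call rested on replicate 3 (0.549 without it). QCR9, another small subunit, was called lower in swi1 rich at -0.50, a call lost without replicate 2 (adjusted p = 0.235) or 3 (0.109), with 0.62 on replicate 1. QCR6, QCR7 and QCR8, further small subunits, were called in no group.

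**Figure D2:**
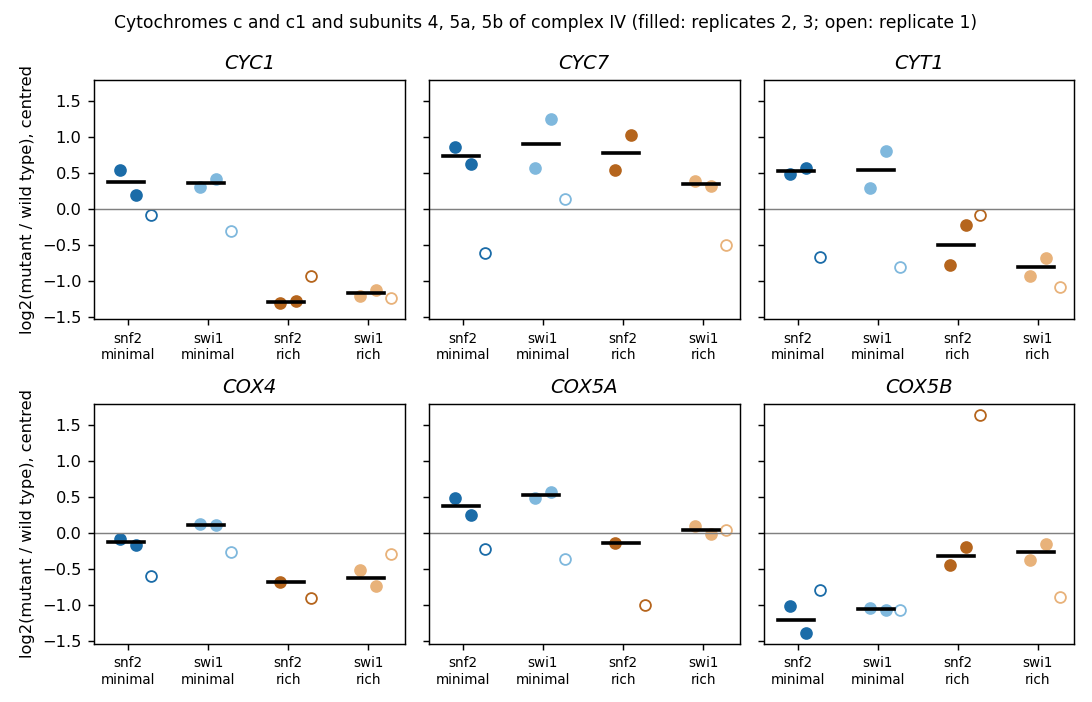
Log2 ratio, mutant over wild type (vertical axis), of CYC1, CYC7, CYT1, COX4, COX5A and COX5B on each array of the 4 groups (horizontal axis), with filled points for replicates 2 and 3, open points for replicate 1 and lines for the mean of replicates 2 and 3 (replicate 2 alone for COX4 and COX5A in snf2 rich). CYC1 lies between -0.93 and -1.31 on all rich arrays, and COX5B between -0.79 and -1.39 on all minimal ones.

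Complex IV transfers electrons to oxygen. Its nuclear subunits split by gene: COX5B, the isoform gene that wild-type cells use mainly when oxygen is scarce, was lower by about 2-fold in both mutants in minimal medium. COX5A, the isoform gene used in air, was higher there on the tested arrays. COX4, a nuclear subunit gene, was lower in swi1 in rich medium.

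COX5B read -0.79, -1.02 and -1.39 on snf2 minimal arrays and -1.06, -1.05 and -1.07 on swi1 minimal arrays. All 6 were below 0, and the tested means of -1.20 ± 0.12 in snf2 (adjusted p = 0.000584) and -1.06 ± 0.12 in swi1 (adjusted p = 0.00116) were called with either array left out. In rich medium COX5B read 1.64, -0.44 and -0.20 in snf2 and -0.89, -0.38 and -0.16 in swi1. The snf2 rich replicate 1 array went the other way, and neither rich mean passed the test (-0.32, adjusted p = 0.0702, in snf2 and -0.27, adjusted p = 0.113, in swi1).

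COX5A read -0.23, 0.49 and 0.26 on snf2 minimal arrays and -0.36, 0.48 and 0.57 on swi1 minimal arrays. Replicates 2 and 3 were above 0 and replicate 1 below in both mutants. Tested means were 0.37 ± 0.10 in snf2 (adjusted p = 0.0358) and 0.53 ± 0.10 in swi1 (adjusted p = 0.0122). Both calls were lost with either array left out, at adjusted p = 0.282 (replicate 2 left out) and 0.0831 (replicate 3 left out) in snf2 and at 0.0755 (replicate 2) and 0.0952 (replicate 3) in swi1. On swi1 rich arrays COX5A read 0.03, 0.09 and -0.02, and on snf2 rich arrays -1.001 and -0.14 (replicates 1 and 2).

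COX4 read -0.30, -0.51 and -0.74 on swi1 rich arrays, all below 0, with a tested mean of -0.63 ± 0.10 (adjusted p = 0.00413) that was lost without replicate 3 (adjusted p = 0.054). On snf2 rich arrays it read -0.91 and -0.68 on replicates 1 and 2, with no value on replicate 3 and so no test. In minimal medium it read -0.60, -0.08 and -0.17 in snf2 and -0.27, 0.12 and 0.11 in swi1, and was called in neither.

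COX17 encodes a chaperone that passes copper to complex IV assembly. On swi1 rich arrays it read -0.63, -2.33 and -0.81, below 0 on all 3, and was called at -1.57 ± 0.30 (adjusted p = 0.00602), mostly from replicate 2. On snf2 rich arrays COX17 read -0.69, -0.32 and -0.19, also below 0 but not called. The minimal arrays read -0.84, -0.05 and -0.03 in snf2 and -0.74, 0.13 and -0.27 in swi1.

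The other complex IV calls stayed under 0.58 in size. COX7 was higher by 0.42 in snf2 minimal. COX8 and COX13 were higher by 0.44 and 0.56 in swi1 minimal. COX6 stood at -0.36 and COX23, a copper-related assembly factor, at -0.41 in swi1 rich, both called lower. Each of these 5 calls was lost without 1 or both arrays (adjusted p from 0.0749 to 0.384). COX9, COX12 and the assembly factors COX10, COX11, COX14, COX15, COX16, COX18 and COX20 were called in no group.

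ATP synthase genes were mostly lower where called, and chiefly on swi1 rich arrays, where 7 of 16 tested were lower and none higher, beside 21.7% lower and 19.1% higher of all genes. Of the F1 subunits, ATP1 (alpha) was called lower in all 4 groups at -0.33 in snf2 minimal, -0.32 in swi1 minimal, -0.36 in snf2 rich and -0.54 in swi1 rich. Adjusted p was 0.0347, 0.0383, 0.0201 and 0.00381 in the same order of groups. Replicate 1 read -0.71, -0.43, 0.42 and -0.04, so that only snf2 rich replicate 1 lay above 0. The swi1 rich call held with either array left out, while the other 3 calls were lost with either left out (adjusted p from 0.0687 to 0.29).

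ATP16, the F1 delta subunit, read 0.00, -0.39 and -0.97 on swi1 rich arrays (-0.68 ± 0.15, adjusted p = 0.0143). The replicate 3 value averaged spots of -1.60 and -0.34, and without replicate 3 the call was lost (adjusted p = 0.132). ATP12, a chaperone for the F1 alpha subunit, read 0.03, -1.49 and -0.34 there (-0.92 ± 0.24, adjusted p = 0.027) and lost the call without replicate 2 (adjusted p = 0.127). ATP25, needed for the mRNA of a mitochondrially encoded Fo subunit, read 0.18, -0.32 and -1.17 (-0.75 ± 0.18, adjusted p = 0.0167) and lost the call without replicate 3 (adjusted p = 0.178). In each of these genes 1 array carried most of the mean, and replicate 1 was near or above 0.

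ATP10, an assembly factor of the Fo part, had the largest called rise among ATP synthase genes. It read 1.30, 0.42 and 0.79 on swi1 minimal arrays, all above 0 (0.61 ± 0.13, adjusted p = 0.0137), and lost the call without replicate 3 (adjusted p = 0.142). On snf2 minimal arrays ATP10 read 0.33, 0.32 and 0.50, also above 0 but not called. ATP15 (F1 epsilon) was higher by 0.45 in swi1 minimal. ATP7 (stator subunit d) was called lower on snf2 arrays at -0.35 in minimal and -0.32 in rich medium, and ATP11 (a chaperone for the F1 beta subunit) at -0.31 in each mutant in rich medium. ATP3 (F1 gamma) and ATP17 (a small Fo subunit) were called lower at -0.36 and -0.46 in swi1 rich. All 7 of these smaller calls were lost with either array left out (adjusted p from 0.0736 to 0.256). ATP2 (F1 beta), ATP4, ATP5, ATP14, ATP20, ATP22 and ATP23 were called in no group.

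The dependence on medium was tested as the minimal effect minus the rich effect within a mutant. In snf2, 2 of 36 tested genes differed, CYC1 upwards and COX5B downwards, where 5.0% of all genes were called (1.29% higher, 3.71% lower). In swi1, 4 of 49 differed, CYC1, CYT1 and COX4 upwards and COX5B downwards, beside 6.26% of all genes (2.07% higher, 4.19% lower). CYC1 differed by 1.66 ± 0.15 in snf2 (adjusted p = 0.000974) and by 1.52 ± 0.15 in swi1 (adjusted p = 0.00166), and both calls held with any of the 4 arrays left out. On replicate 1 the CYC1 difference runs the same way in both mutants, from the values above. There the media also differ in array design, so the 2 cannot be told apart.

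COX5B differed by -0.88 ± 0.17 in snf2 (adjusted p = 0.0279) and by -0.79 ± 0.17 in swi1 (adjusted p = 0.0414). On the tested arrays every minimal value lay below every rich one. The snf2 difference was lost without snf2 minimal replicate 3 (adjusted p = 0.13) or snf2 rich replicate 3 (0.116), and the swi1 difference without any 1 of its 4 arrays (from 0.0581 to 0.18). CYT1 differed by 1.35 ± 0.24 in swi1 (adjusted p = 0.0199), a call lost without swi1 minimal replicate 3 (0.119) or swi1 rich replicate 2 (0.0623) or 3 (0.0526). In snf2 CYT1 stood at 1.03 ± 0.24 (adjusted p = 0.0508). COX4 differed by 0.74 ± 0.14 in swi1 (adjusted p = 0.0345), lost without swi1 minimal replicate 2 (0.0931) or 3 (0.148) or swi1 rich replicate 3 (0.142).

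**Figure D3:**
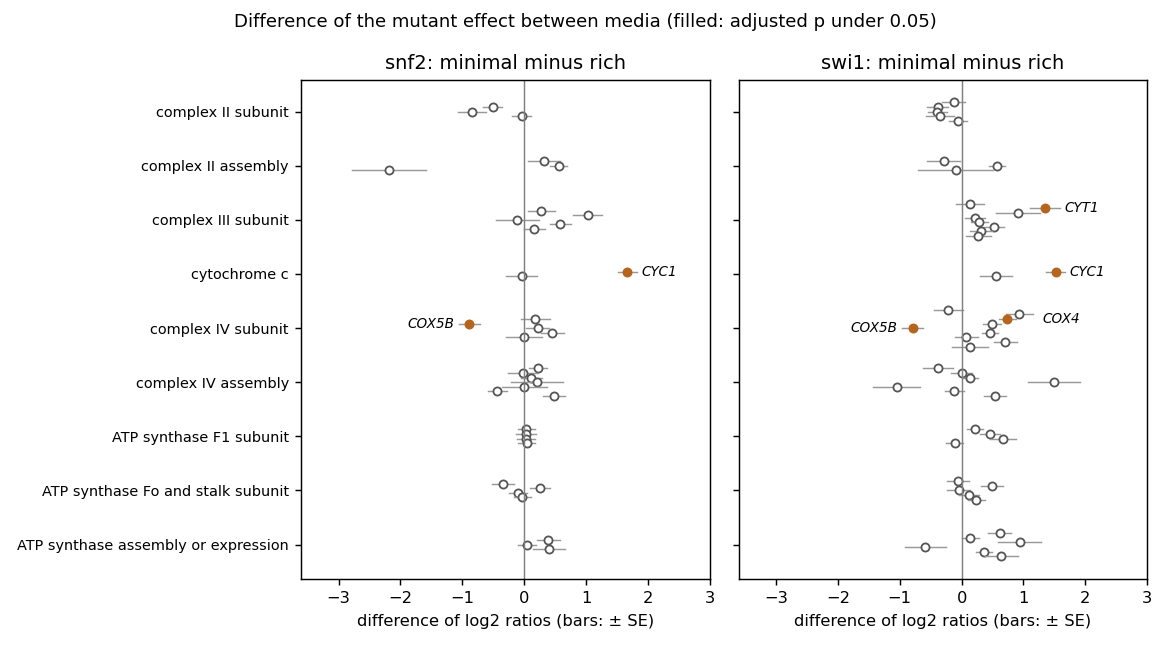
Minimal minus rich difference of the log2 ratio (horizontal axis, bars ± limma's SE), snf2 in the left panel and swi1 in the right, for each tested gene, grouped by complex and role (vertical axis). Filled points mark genes with an adjusted p under 0.05: CYC1 at 1.66 and 1.52 lies farthest right among them, and COX5B at -0.88 and -0.79 lies on the other side of 0.

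The mutants were set against each other within each medium. In minimal medium none of 50 tested genes differed by limma at an adjusted p under 0.05, nor did any of all 5123 genes (0% called), and at an unadjusted p under 0.05 there was 1 respiratory gene, ATP7, and 280 genes in all. In rich medium 0 of 34 were called, beside 0.0294% of all genes. There COX17, SDH4 and SDH8 were the 3 with an unadjusted p under 0.05, and 226 of all genes were. For CYC1 the difference snf2 minus swi1 was 0.01 in minimal medium (95% confidence interval -0.34 to 0.36) and -0.13 in rich medium (-0.49 to 0.23). In rich medium the difference was 0.53 for SDH4 (0.0027 to 1.06, adjusted p = 0.741), 1.85 for SDH8 (0.47 to 3.23, adjusted p = 0.712) and 1.31 for COX17 (0.35 to 2.28, adjusted p = 0.712). These 3 genes are therefore not shown to differ between the mutants after adjustment, and the intervals leave room for sizeable differences.

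Replicate 1 had the sign of the tested mean for at most 50% of the called respiratory genes. The sign was shared by 4 of 9 called genes with a replicate 1 value in snf2 minimal (44.4%) and by 6 of 13 in swi1 minimal (46.2%). In rich medium it was shared by 4 of 9 in snf2 (44.4%) and by 8 of 16 in swi1 (50%). The same shares over all called genes were 82.6%, 80.5%, 64.7% and 73.3%. On minimal replicate 1 arrays most respiratory genes lay below 0, 45 of 52 in snf2 with a median of -0.37 and 41 of 52 in swi1 with a median of -0.30. On replicates 2 and 3 those medians were 0.04 and 0.09 in snf2 and 0.09 and 0.05 in swi1.

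The rich arrays did not show this shift. Medians there were 0.08, -0.15 and -0.02 in snf2 and -0.04, -0.17 and -0.09 in swi1 (replicates 1, 2 and 3). The snf2 rich replicate 1 array stood apart by its spread, with an SD over all genes of 1.41, beside 0.55 to 0.83 on the other 11. Array design, scanning software version and replicate 1 go together, and their part in these differences cannot be told apart.

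**Figure D4:**
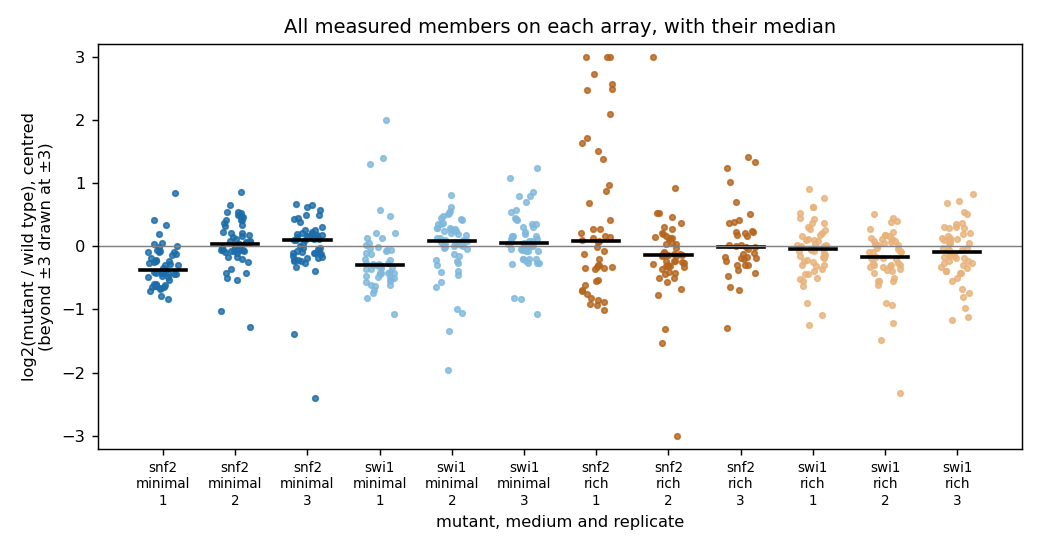
Log2 ratio, mutant over wild type (vertical axis), of each measured respiratory gene as a point on each array (horizontal axis, mutant, medium and replicate), with the array's median as a line and values beyond 3 drawn at 3. The medians of both minimal replicate 1 arrays, -0.37 and -0.30, lie below those of the other 10 arrays, which run from -0.17 to 0.09.

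With all 12 arrays in 1 fit, with the array design as a random block (estimated correlation 0.48), 27 of 35 calls of the genes described by array were lost. CYC1 in rich medium (-1.29, adjusted p = 0.0011, in snf2 and -1.31, adjusted p = 0.00182, in swi1), SDH4 and SDH8 in snf2 rich (1.00, adjusted p = 0.019, and 1.95, adjusted p = 0.0247), COX17 and CYT1 in swi1 rich (-1.41, adjusted p = 0.0499, and -1.18, adjusted p = 0.0354) and the CYC1 difference between media (1.52, adjusted p = 0.00115, in snf2 and 1.45, adjusted p = 0.00177, in swi1) stayed called. The COX5B calls in minimal medium were among those lost, although all 6 of its arrays lay below 0. The share of calls lost in this fit was not counted over all genes.

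Of 8 regulators of respiratory genes, HAP4 and HAP1 were called lower in most groups. HAP4, the activating subunit that limits the Hap2/3/4/5 complex, read -2.51, -0.83 and -0.91 on snf2 minimal arrays, -2.86, -0.70 and -0.80 on swi1 minimal arrays, 1.90, -0.74 and -0.51 on snf2 rich arrays and -1.24, -0.59 and -0.27 on swi1 rich arrays. It lay below 0 on 11 of 12 arrays, the exception being snf2 rich replicate 1. Means were -0.87 ± 0.11 (adjusted p = 0.00165), -0.75 (0.0035), -0.63 (0.00403) and -0.43 (0.0191) in snf2 minimal, swi1 minimal, snf2 rich and swi1 rich. The rich calls were lost without snf2 rich replicate 2 (adjusted p = 0.0551) and swi1 rich replicate 2 (0.204).

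HAP1, the haem-responsive activator, lay below 0 on all 12 arrays. It was called lower in snf2 minimal (-0.66, adjusted p = 0.0145), swi1 minimal (-0.93, adjusted p = 0.0047) and snf2 rich (-0.54, adjusted p = 0.0236), and stood at -0.28 in swi1 rich (adjusted p = 0.166). Calls were lost without snf2 minimal replicate 2 (adjusted p = 0.166) or 3 (0.0519), swi1 minimal replicate 3 (0.0565) and snf2 rich replicate 3 (0.238). MOT3, a repressor of hypoxic genes, was higher in minimal medium by 0.56 in snf2 (adjusted p = 0.008) and 0.48 in swi1 (adjusted p = 0.0153), lost without snf2 minimal replicate 2 (0.0649) or 3 (0.084) or swi1 minimal replicate 2 (0.126). HAP5 was called higher in snf2 rich alone among the groups tested (0.34, adjusted p = 0.0354, lost with either array left out at 0.156 and 0.161). HAP2, HAP3, the hypoxic repressor gene ROX1 and UPC2 were called in no group.

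**Figure D5:**
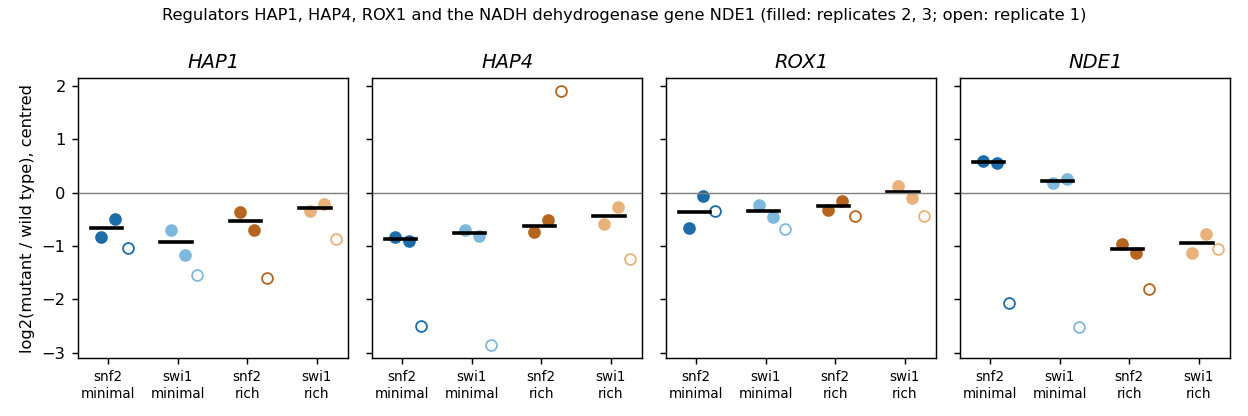
Log2 ratio, mutant over wild type (vertical axis), of HAP1, HAP4, ROX1 and NDE1 on each array of the 4 groups (horizontal axis), with filled points for replicates 2 and 3 and open points for replicate 1. HAP1 lies below 0 on every array, HAP4 on all but 1, and NDE1 is below 0 on all rich arrays.

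Among electron donors, 3 of 5 tested were higher and none lower in snf2 minimal, 1 of 6 higher in swi1 minimal, and 2 of 5 higher and 1 lower in each mutant in rich medium. Of all genes, 12.8% were higher in snf2 minimal, 13.7% in swi1 minimal, 19.5% in snf2 rich and 19.1% in swi1 rich. The shares of all genes called lower were 16.4%, 14.8%, 22.2% and 21.7% in the same groups. NDE1, an external NADH dehydrogenase, was called lower in both mutants in rich medium, where it read -1.81, -0.97 and -1.14 on snf2 rich arrays and -1.06, -1.12 and -0.78 on swi1 rich arrays. In minimal medium NDE1 read -2.06, 0.60 and 0.56 in snf2 and -2.52, 0.18 and 0.26 in swi1, so replicate 1 was far below the others. The tested mean was called higher in snf2 minimal (0.58, adjusted p = 0.00702), a call lost with either array left out. On replicate 1, where the media also differ in array design, the minimal value lay below the rich one in both mutants. The minimal minus rich difference was 1.63 ± 0.16 in snf2 (adjusted p = 0.00117) and 1.17 ± 0.15 in swi1 (adjusted p = 0.00556, and 0.0501 without swi1 minimal replicate 3), from replicates 2 and 3 alone. GUT2, the mitochondrial glycerol-3-phosphate dehydrogenase, was higher in all 4 groups on the tested arrays (0.99, 1.00, 0.68 and 0.66 in snf2 minimal, swi1 minimal, snf2 rich and swi1 rich). Replicate 1 of GUT2 read 0.26, -0.50, -0.25 and 1.10 in the same groups, so it went the other way in swi1 minimal and snf2 rich. Its calls were lost without snf2 rich replicate 2 (adjusted p = 0.123), swi1 minimal replicate 3 (0.0535) and swi1 rich replicate 2 (0.0712) or 3 (0.078).

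Of 29 assembly and translation factors of complexes III and IV, 2 of 27 tested were higher and 2 lower in snf2 minimal, and 6 and 3 of 29 in swi1 minimal. In rich medium the counts were 3 and 5 of 22 in snf2 and 2 and 9 of 27 in swi1. The shares called were 14.8%, 31.0%, 36.4% and 40.7% in snf2 minimal, swi1 minimal, snf2 rich and swi1 rich. Those of all genes were 29.2%, 28.5%, 41.7% and 40.8%, so with both directions together the factors were near or below that background. By direction, 7.41% were higher and 33.3% lower in swi1 rich, beside 19.1% and 21.7% of all genes. In swi1 minimal 20.7% were higher and 10.3% lower, beside 13.7% and 14.8%. In snf2 rich 13.6% were higher and 22.7% lower, beside 19.5% and 22.2%. MSS116, an RNA helicase for mitochondrial introns, was lower on all 12 arrays, with means of -0.64, -0.68, -1.32 and -1.22 in snf2 minimal, swi1 minimal, snf2 rich and swi1 rich. All 4 were called, the minimal ones only with both arrays (adjusted p from 0.0501 to 0.101 with 1 left out). CYC3, the enzyme that attaches haem to cytochrome c, was higher by 0.81 in snf2 minimal and 1.02 in swi1 minimal, lost with either array left out (adjusted p from 0.112 to 0.23).

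In the tricarboxylic acid cycle, which supplies the chain, 2 of 12 tested genes were higher and 2 lower in snf2 minimal, and 1 and 2 of 12 in swi1 minimal. In rich medium the counts were 3 and 0 of 7 in snf2 and 6 and 1 of 10 in swi1. The shares called were 33.3% in snf2 minimal and 25% in swi1 minimal, beside 29.2% and 28.5% of all genes, and 42.9% in snf2 rich and 70% in swi1 rich, beside 41.7% and 40.8%. The medians were 0.16, 0.11, 0.35 and 0.43 in the same groups. IDH1 and IDH2, the subunits of NAD-dependent isocitrate dehydrogenase, were higher by 1.33 and 1.07 in swi1 rich, with 0.39 and -0.15 on replicate 1. LSC2, a succinyl-CoA ligase subunit, was higher in all 4 groups (0.40, 0.52, 1.13 and 1.01), the minimal calls being lost with either array left out (adjusted p from 0.0631 to 0.271). Citrate synthase (CIT1) and aconitase (ACO1) were called lower in minimal medium, at -0.69 and -0.85 in snf2 and at -0.77 and -0.78 in swi1. Those calls were lost without snf2 minimal replicate 3 (adjusted p = 0.186 for CIT1 and 0.061 for ACO1) and with either swi1 minimal array left out (from 0.0529 to 0.166). CIT1 had too few values for a test in rich medium. It read -1.36 and -1.75 there on snf2 replicates 1 and 3 and -0.80 and -1.43 on swi1 replicates 1 and 3, all below 0. ACO1 was called higher in swi1 rich at 0.61 ± 0.14 (adjusted p = 0.0131), with -0.16 on replicate 1. Its minimal minus rich difference was called in both mutants, at -1.14 ± 0.20 in snf2 (adjusted p = 0.02) and -1.40 ± 0.20 in swi1 (adjusted p = 0.00939). On replicate 1, where the media also differ in array design, ACO1 read -0.96 in minimal and -1.21 in rich medium in snf2. That difference ran the other way. In swi1 replicate 1 read -0.42 in minimal and -0.16 in rich medium. The swi1 rich call was lost without replicate 2 (adjusted p = 0.0673) or 3 (0.098). The snf2 difference was lost without snf2 minimal replicate 3 (0.0867) or snf2 rich replicate 2 (0.0761), and the swi1 difference without swi1 minimal replicate 2 (0.0536) or 3 (0.0531).

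Carriers that exchange ADP, ATP and phosphate with the mitochondrion gave 0 higher and 2 lower of 5 tested in snf2 minimal, and 0 and 3 of 6 in swi1 minimal. In rich medium they gave 1 and 2 of 5 in snf2 and 1 and 3 of 5 in swi1. Of all genes, 16.4% were lower in snf2 minimal, 14.8% in swi1 minimal, 22.2% in snf2 rich and 21.7% in swi1 rich. The shares of all genes called higher were 12.8%, 13.7%, 19.5% and 19.1% in the same groups. AAC1, a minor ADP/ATP carrier, was higher by 4.14 in snf2 rich (2.58 and 5.70 on replicates 2 and 3) and 2.51 in swi1 rich, the swi1 call being lost without replicate 2 or 3. In minimal medium AAC1 read 0.59, 1.27 and 1.42 in snf2 and 0.56, 1.48 and 1.225 in swi1, also above 0 but not called. The ADP/ATP carrier genes AAC3 and PET9 went the other way. AAC3 was called lower at -0.39 in snf2 minimal, -0.43 in swi1 minimal, -0.48 in snf2 rich and -0.445 in swi1 rich. Its replicate 1 read -0.20 in snf2 minimal, 0.54 in swi1 minimal and 0.26 in swi1 rich. PET9 was called lower in swi1 rich alone, at -0.43 (adjusted p = 0.0158). Each of these calls was lost without at least 1 array. POR1, the outer membrane porin, was called lower at -0.80 in snf2 minimal, -1.005 in swi1 minimal and -0.58 in swi1 rich, calls lost without snf2 minimal replicate 2 (adjusted p = 0.116), swi1 minimal replicate 2 (0.0656) and swi1 rich replicate 2 (0.134) or 3 (0.097). INH1, the inhibitor of ATP hydrolysis by the ATP synthase, was called lower in rich medium at -0.52 in snf2 and -0.50 in swi1, lost without snf2 rich replicate 2 (adjusted p = 0.0659) and swi1 rich replicate 2 (0.0841). Replicate 1 of INH1 read 1.67 in snf2 rich and 0.38 in swi1 rich, above 0 in both. INH1 was on a list of 3 other subunits and inhibitors of the complexes. Of these, 0 were higher and 0 lower of 3 tested in snf2 minimal, and 0 and 1 of 3 in swi1 minimal. In rich medium the counts were 0 and 1 of 2 in snf2 and 1 and 2 of 3 in swi1. The gene called higher there was STF2 (0.46, adjusted p = 0.0459), with -1.04 on replicate 1, a call lost with either array left out.

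Haem and coenzyme Q synthesis make cofactors of the chain. The share called over all genes, for the counts that follow, was 29.2% in snf2 minimal, 28.5% in swi1 minimal, 41.7% in snf2 rich and 40.8% in swi1 rich. Of haem genes, 0 were higher and 1 lower of 7 tested in snf2 minimal, and 0 and 1 of 8 in swi1 minimal. In rich medium 0 and 0 of 7 were called in snf2 (2 at an unadjusted p under 0.05 by limma) and 0 and 2 of 8 in swi1. Of coenzyme Q genes, 1 was higher and 0 lower of 7 in snf2 minimal, 2 and 0 of 8 in swi1 minimal, 0 and 0 of 6 in snf2 rich (0 at an unadjusted p under 0.05) and 1 and 1 of 7 in swi1 rich. The ATP synthase expression factors gave 1 and 0 of 5 in snf2 minimal, 1 and 0 of 5 in swi1 minimal, 0 and 0 of 2 in snf2 rich (0 at an unadjusted p under 0.05) and 2 and 1 of 5 in swi1 rich.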

How the data were processed

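The deposited values, in 3 tables for the 3 array designs, were read as log2 ratios of the 2 channels. Images were read with ScanAlyze, version 2.24 for replicates 2 and 3 and an unknown version for replicate 1, per the labels. How arrays were normalised and which dye was which are not given. Base 2 was taken over for replicate 1. The sign was turned to mutant over wild type, a likely direction because the labels name the wild type as channel 2 and ScanAlyze forms channel 2 over channel 1.

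Gene names came from the platform annotation: 6956 of 8832 probes had 1 gene and 1876 were unnamed in the table of 8 arrays, and 5548 of 6400 and 5516 of 6384 had 1 gene in the others. The genes described had 60, 52 and 52 probes there, and 27 were measured on all 12 arrays. Spots of a gene were averaged and each array was centred on its median gene. limma 3.58.1 (R 4.3.3) was fitted with 1 mean per group to the 8 arrays, two-sided, for genes with values on both arrays of the groups compared. A gene was called at a Benjamini-Hochberg adjusted p under 0.05. On simulated data the same fit recovered 36% to 64% of genes changed by 0.58 and 78% to 85% of those changed by 1.00 in the comparisons with the wild type. The simulation changed 100 genes at each size, a smaller share than was called in the data, so these rates need not hold there.

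The genes and lists were chosen with earlier results of these data known. Values on every array are given for the isoform pairs, for genes called with a mean of at least 0.58 in size, and for genes called in a difference. Of other lists, the regulators and up to 4 called genes with the smallest adjusted p per comparison could be named. Alternatives were no centring, equal spread, single probes, all 12 arrays, a replicate block, only the arrays of 1 medium or mutant, robust variance, genes on all 8 arrays, and each array left out. Replicate numbers were not taken to pair samples. The number of arrays limits the precision.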

Additional observations from a re-analysis of the deposited data

Results flagged for a closer look

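In 4 genes the mutant effect differed between media by limma's test of the difference (minimal minus rich, log2 scale, replicates 2 and 3). CYC1 differed by 1.663 in snf2, with 0.37 in minimal and -1.30 in rich medium, and by 1.5205 in swi1, with 0.35 in minimal and -1.17 in rich medium. COX5B differed by -0.8835 in snf2, with -1.20 in minimal and -0.32 in rich medium, and by -0.788 in swi1, with -1.06 in minimal and -0.27 in rich medium. CYT1 differed by 1.349 in swi1, with 0.54 in minimal and -0.81 in rich medium, and COX4 by 0.7405 in swi1, with 0.12 in minimal and -0.63 in rich medium. On replicate 1, which entered no test, CYC1 read -0.08 in minimal and -0.93 in rich medium in snf2 and -0.31 in minimal and -1.24 in rich medium in swi1. COX5B read -0.79 in minimal and 1.64 in rich medium in snf2 and -1.06 in minimal and -0.89 in rich medium in swi1. Replicate 1 of CYT1 in swi1 read -0.81 in minimal and -1.09 in rich medium, and COX4 -0.27 in minimal and -0.30 in rich medium. Those 2 differences are small there. The minimal and the rich replicate 1 arrays had different designs, so medium and design cannot be told apart in any of these replicate 1 values.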

How the results depend on the processing

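None of the calls of respiratory genes described by array turned its direction under the alternatives run, and other called genes were not followed through all of them. Counts of called respiratory genes moved most when all 12 arrays were fitted with the array design as a random block: the genes called higher were 0 in snf2 minimal, 0 in swi1 minimal, 2 in snf2 rich and 0 in swi1 rich, those called lower were 0, 0, 1 and 3 in the same groups, and 1 differed between media in swi1. At an unadjusted p under 0.05 limma's 8-array fit had 18, 17, 16 and 19 respiratory genes in these groups. With the replicate block, 7 were higher in swi1 minimal, 2 lower in snf2 minimal, 1 lower in swi1 minimal, and 2 differed between media in swi1. Replicate numbers were not treated as a pairing, since same-numbered deviations correlated at -0.03 to 0.02. Without centring, 8 were higher in snf2 rich, 2 higher in swi1 rich, 2 lower in snf2 minimal and 2 lower in snf2 rich. With arrays at equal spread 3 were lower in snf2 rich, and over genes measured on all 8 arrays, where fewer are tested, 8 were lower in swi1 rich. With only the arrays of that medium or mutant, 2 were higher in swi1 rich, 2 lower in snf2 minimal, 3 lower in snf2 rich, 9 lower in swi1 rich, and 1 differed between media in snf2. The cause of these moves was not tested. Counts over all genes under these alternatives, or with 1 array left out, are not given here. The moves are therefore not shown to be particular to respiratory genes.

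Leaving out 1 array gave 0 to 1 higher and 1 to 2 lower in snf2 minimal, 1 to 4 higher and 1 to 3 lower in swi1 minimal, 3 to 6 higher and 2 to 5 lower in snf2 rich, and 0 to 3 higher and 6 to 6 lower in swi1 rich. The medium difference then called 1 to 4 genes in snf2 and 3 to 4 in swi1, and the difference between mutants 0 to 0 in minimal and 0 to 1 in rich medium. Of the calls of genes described by array, 43 of 82 tests with 1 array left out were lost, 7 of 35 under the replicate block and 12 of 35 with only the arrays of that medium or mutant. The tables hold no signal over background, so its limits are unknown.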
